A study of Mus musculus with 2 samples.

Results

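The Sox9-EGFP high cells were 241 mouse liver cells that carried the transcript of a green fluorescent reporter of Sox9 at 2 or more UMIs per 10000 (UMIs, unique molecular identifiers, count captured RNA molecules). They were chosen from a droplet single-cell RNA library of liver cells by the level of that reporter, called EGFP. A cell was kept with 500 or more genes, 10000 or more UMIs and no more than 30% of them mitochondrial, and with under 2 UMIs per 10000 of Ptprc, Stab2, Clec4f and C1qa together, which are genes of immune and endothelial cells. The 241 cells were 10.7% (95% Clopper-Pearson interval 9.49 to 12.1) of the 2244 cells of the library that met the depth and mitochondrial limits, of 8694 barcodes in that library and 27010 in the series of 2 libraries. Since EGFP, Ptprc, Stab2, Clec4f and C1qa chose the cells, their levels are descriptions.

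The library pooled cells of Sox9-EGFP mice fed DDC for 2 weeks (2 mice) with cells of WT mice on a normal diet at day 0 (2 mice), all with the strain label C57BL/6J;129S6/SvEvTac, and age and sex are not given in the sources used here. DDC is 3,5-diethoxycarbonyl-1,4-dihydrocollidine, a diet additive that inhibits haem synthesis and damages bile ducts. The cells were primary hepatocytes from perfused liver, by the labels, and the barcodes themselves do not tell which mouse, diet or genotype a cell came from. The library is therefore 1 sample: cells are not replicates, no test could be run, and each interval below covers counting error only.

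Sox9 is a transcription factor of bile duct epithelium that adult hepatocytes next to the portal vein carry at low levels. In biliary injury, hepatocytes are known to switch on Sox9, osteopontin and other duct genes while they keep part of the hepatocyte programme, and such cells are often called liver progenitor-like cells. Cholangiocytes, the cells that line bile ducts, carry Sox9 together with keratins such as Krt19 and Krt7 and do not make albumin.

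Groups of hepatocytes with 2 EGFP levels were set against the Sox9-EGFP high cells, both under the same depth and immune limits and both with at least 100 Alb UMIs per 10000. The EGFP-low hepatocytes (473 cells) had at least 1 EGFP UMI but under 2 per 10000, and the EGFP-0 hepatocytes (777 cells) had none. An EGFP-0 hepatocyte can come from a WT mouse, which carries no reporter, or from a Sox9-EGFP mouse, and the origins cannot be told apart. An EGFP transcript made by the cell itself marks a Sox9-EGFP mouse fed DDC. Ratios over EGFP-0 hepatocytes can therefore also hold differences of diet and genotype. The median EGFP-low hepatocyte had 2 EGFP UMIs, and whether stray EGFP RNA gave some of these was not tested. A further 431 cells with at least 10 UMIs per 10000 of the 4 immune and endothelial genes showed how much RNA of other cells a droplet holds. The other 322 cells fell in no group. The Alb limit applied to the hepatocytes and not to the Sox9-EGFP high cells, so lower Alb and lower levels of genes that move with it are in part set by that choice, and the comparisons were repeated in the 106 Sox9-EGFP high cells with at least 100 Alb UMIs per 10000.

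The median cell held 50005 UMIs and 6778 genes among Sox9-EGFP high cells, 47960 and 6221 among EGFP-low hepatocytes, and 37655 and 5513 among EGFP-0 hepatocytes. The median mitochondrial share was 5.71%, 6.73% and 7.56% in the same 3 groups. Over all genes with at least 50 UMIs in both groups together, the median log2 ratio of summed CPM (UMIs of a gene scaled to a fixed total of UMIs in the group) was 0.28 in Sox9-EGFP high cells over EGFP-0 hepatocytes and 0.25 over EGFP-low hepatocytes, so list medians are also given relative to it. Barcodes shared by the 2 libraries numbered 50, and 1 of them was a Sox9-EGFP high cell.

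EGFP reached 2.01 UMIs per 10000 in the lowest Sox9-EGFP high cell, 4.43 in the median cell and 38.0 in the highest, from 3 to 207 UMIs per cell. Cells on either side of the limit of 2 were close in Sox9 and Spp1 and less so in Cd24a and Ccn2. The 43 cells at 2 to 2.5 EGFP UMIs per 10000 had summed levels of 197 CPM for Sox9, 7855 CPM for Spp1, 118 CPM for Cd24a and 64.7 CPM for Ccn2, against 183, 7442, 65.0 and 18.3 CPM in the 54 cells at 1.5 to 2. Among the 431 immune and endothelial cells, 35 held any EGFP UMI, and 9 reached 2 per 10000.

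**Figure D1:**
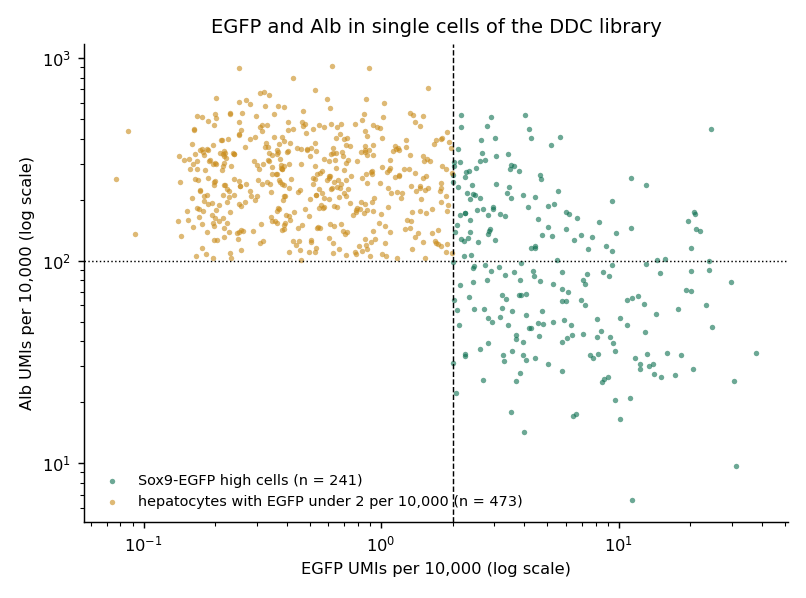
Each point is 1 cell, with EGFP UMIs per 10000 on the horizontal axis and Alb UMIs per 10000 on the vertical axis, both on log scales. The Sox9-EGFP high cells lie right of the dashed line at 2 and spread over Alb levels of 6.55 to 520.6, on both sides of the dotted line at 100 above which the EGFP-low hepatocytes were chosen.

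The given markers of these cells were detected in them widely. Sox9 ran up to 11.3 UMIs per 10000 in Sox9-EGFP high cells with a median of 2.43, against medians of 0.71 in EGFP-low and 0.37 in EGFP-0 hepatocytes. In sums, Sox9 stood at 288 CPM in Sox9-EGFP high cells, 111 CPM in EGFP-low hepatocytes and 68.2 CPM in EGFP-0 hepatocytes, a log2 ratio of 1.37 (95% interval 1.30 to 1.45) over the EGFP-low and 2.08 (2.00 to 2.16) over the EGFP-0 cells. Sox9 is the gene whose reporter chose the cells, so this ratio checks the label and is no finding. After each cell was thinned to 10000 UMIs, 83.0% (77.6 to 87.5) of Sox9-EGFP high cells, 53.7% of EGFP-low hepatocytes and 36.9% of EGFP-0 hepatocytes held a Sox9 UMI, against 12.3% of immune and endothelial cells.

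Spp1, which encodes the secreted matrix protein osteopontin, had a median of 130 UMIs per 10000 and a highest value of 612 in Sox9-EGFP high cells, against medians of 6.62 in EGFP-low and 1.71 in EGFP-0 hepatocytes and 1.32 in immune and endothelial cells. The ranges overlapped, since 1 Sox9-EGFP high cell had no Spp1 UMI and the highest EGFP-0 hepatocyte reached 317 per 10000. The log2 ratio was 2.02 over EGFP-low and 3.75 over EGFP-0 hepatocytes. Cd24a, a small cell surface glycoprotein, was summed at 196 CPM in Sox9-EGFP high cells against 21.5 CPM in EGFP-low and 8.12 CPM in EGFP-0 hepatocytes, and the log2 ratio over the EGFP-0 cells was 4.59 (4.404 to 4.79). It was found in 151 of the 241 Sox9-EGFP high cells. Tnfrsf12a, the receptor for the cytokine TWEAK, was at 319 CPM in Sox9-EGFP high cells, 166 CPM in EGFP-low hepatocytes and 121 CPM in EGFP-0 hepatocytes, 0.94 and 1.40 on the log2 scale.

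**Figure D2:**
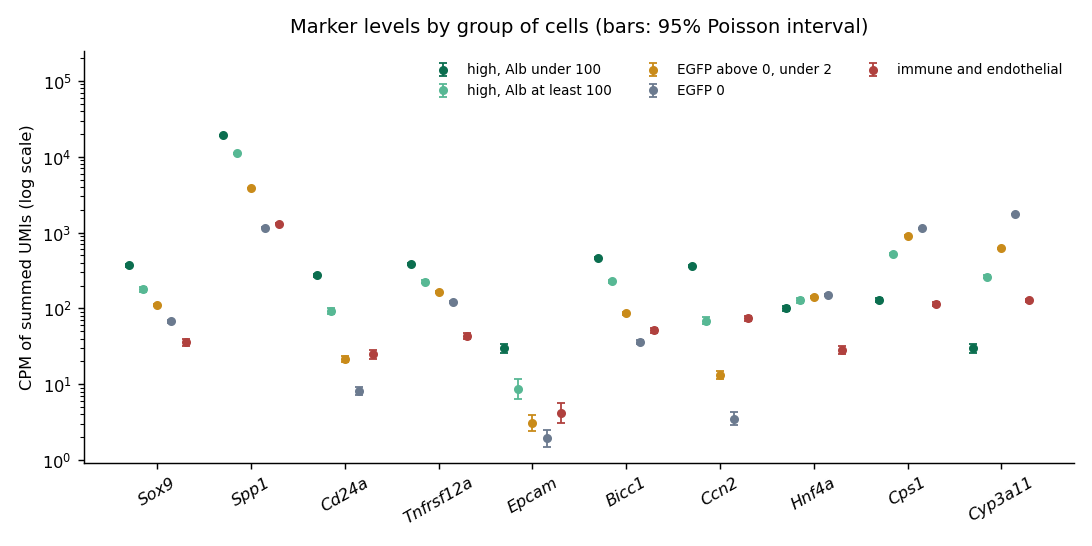
Summed CPM (log scale) of 10 genes in Sox9-EGFP high cells with Alb under 100 per 10000, those with Alb of at least 100, EGFP-low hepatocytes, EGFP-0 hepatocytes, and immune and endothelial cells, with 95% Poisson intervals. Sox9, Spp1, Cd24a, Tnfrsf12a, Epcam, Bicc1 and Ccn2 descend through the first 4 groups, while Hnf4a, Cps1 and Cyp3a11 ascend through them.

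Most Sox9-EGFP high cells carried more Alb than most immune and endothelial cells, but less than the median hepatocyte of either group. Other hepatocyte genes varied in whether they exceeded the immune and endothelial cells. Alb ran from 6.55 to 520.6 UMIs per 10000 with a median of 87.5, against medians of 251 in EGFP-low hepatocytes, 270.8 in EGFP-0 hepatocytes and 8.88 in immune and endothelial cells. Alb was above the 90th percentile of the immune and endothelial cells (32.6 per 10000) in all but 30 Sox9-EGFP high cells. For Apoc1 and for the urea cycle enzymes Ass1 and Arg1, the median Sox9-EGFP high cell, at 16.7, 3.36 and 0.44 UMIs per 10000, lay below that percentile, at 25.7, 3.44 and 0.98. Hnf4a, a transcription factor that maintains hepatocyte gene expression, was at 112 CPM in Sox9-EGFP high cells, 142 CPM in EGFP-low hepatocytes, 149 CPM in EGFP-0 hepatocytes and 28.3 CPM in immune and endothelial cells. Both an Hnf4a and a Sox9 UMI were found in 222 of the 241 Sox9-EGFP high cells (92.1%, 88.0 to 95.2), against 397 of 473 EGFP-low hepatocytes (83.9%) and 485 of 777 EGFP-0 hepatocytes (62.4%), at the depths given above.

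Macrophage and endothelial markers were near the level of the hepatocytes, while the sum of cholangiocyte markers was higher. The 8 macrophage markers summed to 67.2 CPM in Sox9-EGFP high cells, 71.3 CPM in EGFP-low hepatocytes and 82.2 CPM in EGFP-0 hepatocytes, against 21547 CPM in immune and endothelial cells. The 8 endothelial markers summed to 23.8, 28.8, 29.6 and 1268 CPM in the same order. The macrophage sum holds Clec4f and C1qa and the endothelial sum Stab2. These genes chose all 4 groups, so both sums are in part set by that choice. The 8 stellate cell or fibroblast markers summed to 32.3, 20.7, 26.5 and 1025 CPM. The 6 T or NK cell markers summed to 1.47 CPM, the 4 neutrophil markers to 0.65 CPM, the 5 monocyte or dendritic cell markers to 10.2 CPM and the 4 erythroid markers to 1.88 CPM in Sox9-EGFP high cells, and 3 of 4 B cell and 3 of 4 mesothelial markers had no UMI there. The 9 cholangiocyte markers summed to 696 CPM in Sox9-EGFP high cells, 246 CPM in EGFP-low and 121 CPM in EGFP-0 hepatocytes. They summed to 92.0 CPM in immune and endothelial cells. Bicc1 alone gave 365 CPM of the sum in Sox9-EGFP high cells, and the lowest of the 9 markers was at 0.57 CPM there.

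The defining cholangiocyte keratins were nearly absent. Krt19 had 44 UMIs over all Sox9-EGFP high cells, found in 3 cells, and 41 of them were in a single cell. That cell held 39 Epcam, 7 Krt7, 6 Tff2, 6 Muc1, 20 Sox9 and 417 Spp1 UMIs among 22890, no Hnf4a UMI, and the lowest Alb level of all Sox9-EGFP high cells at 6.55 per 10000. Just 2 barcodes of the library had 5 or more Krt19 UMIs. Cftr, the chloride channel of the duct cell's apical membrane, was spread more widely, with 71 UMIs in 30 Sox9-EGFP high cells and 4 UMIs in EGFP-0 hepatocytes. By the markers, 1 of the 241 cells thus had the keratin pattern of a bile duct cell, and in the other cells with a Krt19 UMI there were at most 2.

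Over 11549 genes tested against EGFP-0 hepatocytes, 1375 (11.9%) were at least 2-fold higher and 568 (4.92%) at least 2-fold lower in Sox9-EGFP high cells. Relative to the median of all genes, the split was 841 higher and 881 lower. Against EGFP-low hepatocytes, 889 of 11321 genes (7.85%) were at least 2-fold higher and 315 (2.78%) at least 2-fold lower. EGFP-low over EGFP-0 hepatocytes gave 78 (0.672%) higher and 107 (0.921%) lower of 11614 genes. In the 106 Sox9-EGFP high cells with at least 100 Alb UMIs per 10000, 524 of 11098 genes (4.72%) were at least 2-fold higher and 424 (3.82%) at least 2-fold lower than in EGFP-0 hepatocytes, while 215 of 10833 genes (1.98%) were at least 2-fold higher and 155 (1.43%) at least 2-fold lower than in EGFP-low hepatocytes, which were under the same Alb limit. The comparisons share their cells, so their counts are given side by side and are not independent.

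**Figure D3:**
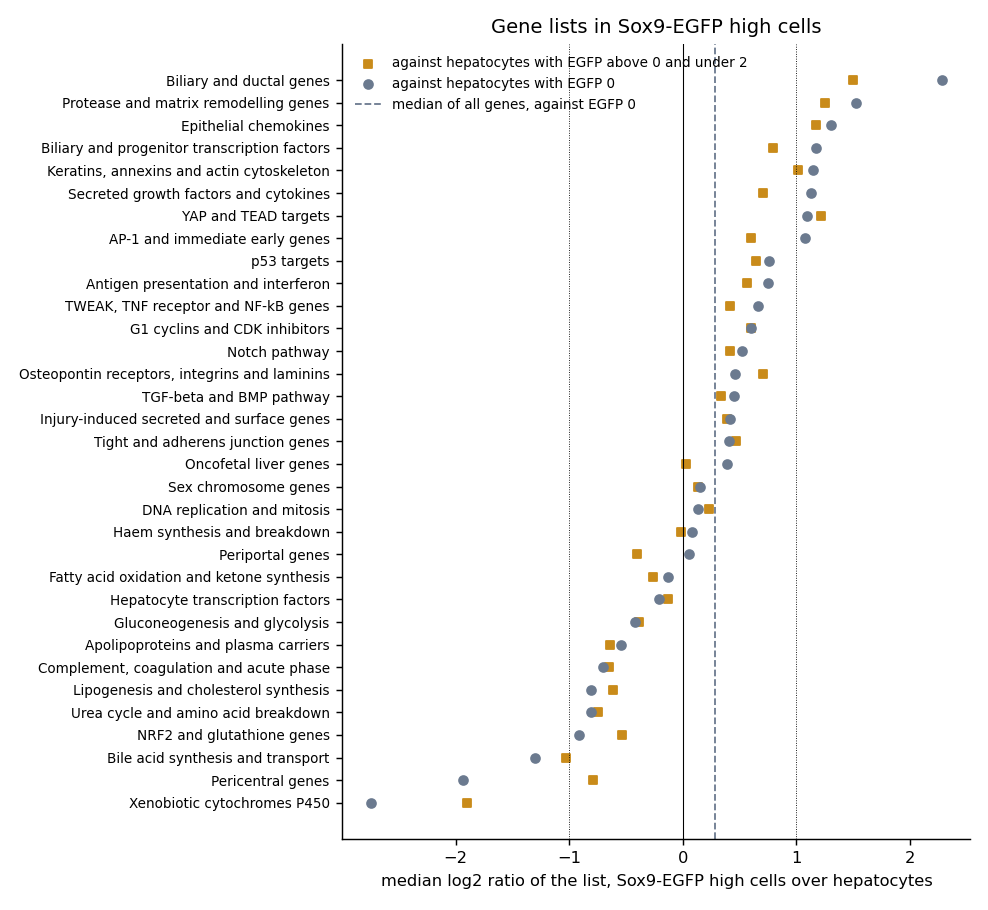
Each row is a gene list, and each mark the median log2 ratio of its tested genes, with circles for Sox9-EGFP high cells over EGFP-0 hepatocytes and squares for Sox9-EGFP high cells over EGFP-low hepatocytes. Dotted lines stand at 2-fold. The biliary and ductal list lies farthest right at 2.28 and 1.5, and the xenobiotic cytochromes P450 farthest left at -2.75 and -1.90.

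Of 20 biliary and ductal genes, 13 had enough UMIs against EGFP-0 hepatocytes, and 10 of these were at least 2-fold higher and none at least 2-fold lower in Sox9-EGFP high cells, with a median log2 ratio of 2.28 (2.00 relative to all genes). Against EGFP-low hepatocytes, 8 of 14 were at least 2-fold higher, with a median of 1.5. Bicc1, an RNA-binding protein of ducts and kidney tubules, was at 365 CPM in Sox9-EGFP high cells, 85.8 CPM in EGFP-low hepatocytes and 36.5 CPM in EGFP-0 hepatocytes. Epcam, an epithelial adhesion molecule of ducts, was at 20.95 CPM against 3.11 and 1.96 CPM in the same order and was found in 90 of the 241 Sox9-EGFP high cells. The keratin Krt23 had log2 ratios of 2.71 over EGFP-0 and 1.60 over EGFP-low hepatocytes, and Pkhd1, the ciliary protein fibrocystin, 2.36 and 1.64.

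Among the transcription factors of bile duct and progenitor cells, 9 of 15 tested genes were at least 2-fold higher than in EGFP-0 hepatocytes and 5 of 15 at least 2-fold higher than in EGFP-low hepatocytes, with medians of 1.17 (0.89 relative to all genes) and 0.79. Sox4, which acts with Sox9 in bile duct development in the mouse, was found in 228 of 241 Sox9-EGFP high cells, with a median of 3.03 UMIs per 10000 against 0.16 in EGFP-low hepatocytes and 0 in EGFP-0 hepatocytes. Its sum was 384 CPM in Sox9-EGFP high cells, 77.5 CPM in EGFP-low and 31.0 CPM in EGFP-0 hepatocytes. The ETS family factors Ehf and Etv4 were both at 11.5 CPM in Sox9-EGFP high cells and under 2 CPM in both hepatocyte groups. Ehf was found in 51 of the 241 cells.

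YAP and TEAD form a transcription complex that the Hippo pathway restrains and that is known to drive hepatocytes towards duct-like states in mice. Of 15 tested targets, 9 were at least 2-fold higher and 1 at least 2-fold lower than in EGFP-0 hepatocytes, with a median of 1.09 (0.81 relative to all genes), and 7 of 14 were at least 2-fold higher than in EGFP-low hepatocytes, with a median of 1.22. Ccn2, a secreted matricellular protein, was at 238 CPM in Sox9-EGFP high cells, 13.3 CPM in EGFP-low hepatocytes and 3.53 CPM in EGFP-0 hepatocytes, a log2 ratio of 6.08 (5.80 to 6.37) over the EGFP-0 cells. It was found in 135 of 241 Sox9-EGFP high cells with a median of 0.19 and a highest value of 26.2 UMIs per 10000, so its sum came from part of the cells. Fjx1 had a log2 ratio of 6.28 over EGFP-0 and 4.46 over EGFP-low hepatocytes, and F3, tissue factor, 2.35 and 1.65. Ankrd1, a nuclear ankyrin repeat protein, had 448 UMIs in Sox9-EGFP high cells, but 274 of them (61.2%) lay in a single cell. Without the top cell of each group its log2 ratio over EGFP-0 hepatocytes was 5.16, against 6.02 with it.

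The upstream sequence of the YAP and TEAD targets is shown because TEAD proteins bind the letters GGAATG, or CATTCC on the other strand. RefSeq windows of 250 bases before the start (build GRCm38.p6) were found for 11 of the 16 listed genes, and 7 of these held the TEAD letters, against 14.4% of all 27025 genes with such a window (12.6% of 32851 windows). The list is made of known targets, so this is a description. AP-1 letters, TGANTCA on either strand, were in 7.82% of all genes and 6.75% of windows, and in 1 of the 11. The TEAD letters did not go with the ratio over EGFP-0 hepatocytes in every gene: Ptpn14 (0.33), Crim1 (0.26) and Axl (-0.67) held them and were under 2-fold, while Tgfb2 (2.21) had none and was higher. The windows of Ankrd1 (chr19:36119845-36120094, minus strand), Ajuba (chr14:54577662-54577911, minus strand), Ccn1 (chr3:145649986-145650235, minus strand), Amotl2 (chr9:102717554-102717803, plus strand) and F3 (chr3:121723287-121723536, plus strand) belong to genes at least 2-fold higher than in EGFP-0 hepatocytes, and each is written towards its gene. Capitals mark TEAD letters in the first 4 and AP-1 letters in F3. The pair of capital runs in F3 read TGAATCA and TGAGTCA.
Ankrd1: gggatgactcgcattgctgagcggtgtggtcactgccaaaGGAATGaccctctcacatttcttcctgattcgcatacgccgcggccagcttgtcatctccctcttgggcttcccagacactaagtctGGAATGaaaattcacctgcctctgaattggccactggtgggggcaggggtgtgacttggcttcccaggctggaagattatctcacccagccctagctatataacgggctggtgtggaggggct
Ajuba: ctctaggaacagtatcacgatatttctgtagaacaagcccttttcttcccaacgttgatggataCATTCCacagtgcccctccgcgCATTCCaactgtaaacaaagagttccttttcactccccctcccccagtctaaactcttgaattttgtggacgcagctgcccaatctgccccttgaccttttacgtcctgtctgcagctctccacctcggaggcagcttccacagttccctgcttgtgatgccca
Ccn1: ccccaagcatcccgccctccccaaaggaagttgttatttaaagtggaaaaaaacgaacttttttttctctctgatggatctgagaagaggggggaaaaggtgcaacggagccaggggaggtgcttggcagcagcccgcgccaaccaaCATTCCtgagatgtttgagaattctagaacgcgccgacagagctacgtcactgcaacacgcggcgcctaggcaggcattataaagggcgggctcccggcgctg
Amotl2: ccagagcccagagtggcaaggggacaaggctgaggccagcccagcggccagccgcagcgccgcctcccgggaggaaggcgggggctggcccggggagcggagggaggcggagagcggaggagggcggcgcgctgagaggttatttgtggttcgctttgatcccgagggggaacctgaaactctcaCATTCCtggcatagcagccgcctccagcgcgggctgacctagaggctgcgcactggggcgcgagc
F3: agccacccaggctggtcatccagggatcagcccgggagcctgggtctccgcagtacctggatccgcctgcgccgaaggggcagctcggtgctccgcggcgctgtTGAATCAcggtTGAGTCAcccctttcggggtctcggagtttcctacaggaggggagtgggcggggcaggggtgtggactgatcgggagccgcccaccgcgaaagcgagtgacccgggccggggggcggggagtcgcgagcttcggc
Ccn1, a secreted relative of Ccn2, was at 405 CPM in Sox9-EGFP high cells, 141 CPM in EGFP-low and 98.6 CPM in EGFP-0 hepatocytes. Ajuba, a LIM domain protein of the Hippo pathway, was at 22.6, 8.09 and 7.16 CPM in the same order, and Amotl2, an angiomotin that binds YAP, at 41.1, 21.5 and 19.3 CPM. Ccn1, Ajuba and Amotl2 were picked for their windows after their values were seen.

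In the Notch pathway, which directs bile duct differentiation, 6 of 15 listed genes had enough UMIs against EGFP-0 hepatocytes. Of these, 1 was at least 2-fold higher, where 11.9% of all genes were, and the median was 0.52 (0.24 relative to all genes). The higher gene was the ligand Jag1, at 41.6 CPM in Sox9-EGFP high cells, 7.28 CPM in EGFP-low hepatocytes and 3.96 CPM in EGFP-0 hepatocytes. The receptor Notch2 was at 39.2, 32.7 and 27.8 CPM and the pathway's DNA-binding factor Rbpj at 23.1, 14.9 and 15.8 CPM in the same order. Of 16 tested TWEAK, TNF receptor and NF-kB genes, 4 were at least 2-fold higher than in EGFP-0 and 1 of 15 than in EGFP-low hepatocytes, with medians of 0.66 (0.38 relative to all genes) and 0.41. Over all genes, 7.85% were at least 2-fold higher than in EGFP-low hepatocytes. The NF-kB subunit Relb had log2 ratios of 1.40 and 0.96, and the inhibitor Nfkbie 1.70 and 1.09. Among AP-1 and immediate early genes, 8 of 13 were at least 2-fold higher than in EGFP-0 hepatocytes and 2 of 13 than in EGFP-low hepatocytes, led by Ier3 at 183 CPM in Sox9-EGFP high cells, 87.5 CPM in EGFP-low and 39.2 CPM in EGFP-0 hepatocytes. These genes also respond to tissue dissociation, whose part was not tested. The immune and endothelial cells, which went through the same dissociation, had 52.98 CPM of Ier3 and 410 CPM of Junb, against 368 CPM of Junb in Sox9-EGFP high cells.

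Many cytoskeletal and matrix genes were higher in Sox9-EGFP high cells. Of 23 tested keratin, annexin and actin cytoskeleton genes, 14 were at least 2-fold higher than in EGFP-0 hepatocytes and 11 of 22 than in EGFP-low hepatocytes, with medians of 1.15 (0.87 relative to all genes) and 1.02. The actin-binding peptide Tmsb10 was at 725 CPM in Sox9-EGFP high cells, 116 CPM in EGFP-low and 74.2 CPM in EGFP-0 hepatocytes, and the tubulins Tuba1a and Tubb2b had log2 ratios of 4.77 and 4.53 over EGFP-0 hepatocytes. The calcium-dependent membrane-binding protein Anxa3 was at 138, 7.66 and 3.73 CPM, but reached 201 CPM in immune and endothelial cells. Among protease and matrix genes, 10 of 17 were at least 2-fold higher in each comparison, with medians of 1.53 (1.25 relative to all genes) and 1.26. The galectin Lgals1 was at 562 CPM in Sox9-EGFP high cells, 99.1 CPM in EGFP-low and 69.7 CPM in EGFP-0 hepatocytes, and tissue plasminogen activator, Plat, at 20.7, 3.32 and 3.96 CPM.

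Cxcl5, a neutrophil attractant, was at 17.0 CPM in Sox9-EGFP high cells and under 1 CPM in both hepatocyte groups. Of 10 epithelial chemokines, 6 were at least 2-fold higher than in EGFP-0 and 6 than in EGFP-low hepatocytes, with medians of 1.31 (1.03 relative to all genes) and 1.17. In the Sox9-EGFP high cells with at least 100 Alb UMIs per 10000 this was no longer so: none of 8 was at least 2-fold higher and 1 was lower than in EGFP-low hepatocytes, with a median of 0.44, and 2 of 8 were higher than in EGFP-0 hepatocytes, with a median of 0.29. Ccl2, the main monocyte attractant, had a median of 2.19 and a highest value of 83.9 UMIs per 10000 in Sox9-EGFP high cells and summed to 714 CPM, against 241 CPM in EGFP-low and 142 CPM in EGFP-0 hepatocytes and 141 CPM in immune and endothelial cells. Ccl7 was at 29.2, 7.02 and 8.89 CPM in the first 3 groups, yet at 7.30 CPM in the Sox9-EGFP high cells with at least 100 Alb UMIs per 10000. Of 16 secreted growth factors and cytokines, 8 were at least 2-fold higher and 1 at least 2-fold lower than in EGFP-0 hepatocytes. The higher ones included Wnt4 (3.80), Pdgfb (2.91), the macrophage growth factor Il34 (2.58) and Lif (2.54), given as log2 ratios over EGFP-0 hepatocytes. A single cell held 40 of the 132 Lif UMIs.

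Some cell surface and junction genes were higher in Sox9-EGFP high cells and others lower. The cadherin Cdh6 was at 17.2 CPM in Sox9-EGFP high cells, found in 55 of them, against 0.81 CPM in EGFP-low hepatocytes and 2 UMIs in all EGFP-0 hepatocytes, a log2 ratio of 8.01 (6.14 to 11.1) over the EGFP-0 cells. The fetal claudin Cldn6 was at 16.2 CPM, found in 58 cells, against 0.26 CPM in EGFP-low hepatocytes and 2 UMIs in EGFP-0 hepatocytes, a log2 ratio of 7.93 (6.06 to 10.98). With so few UMIs in EGFP-0 hepatocytes both ratios are unsteady, at 8.89 for Cdh6 and 8.77 for Cldn6 without the top cell of each group. The hepatocyte tight junction claudin Cldn1 was at 25.4 CPM in Sox9-EGFP high cells, 50.3 CPM in EGFP-low and 65.2 CPM in EGFP-0 hepatocytes, and the gap junction connexin Gjb2 at 67.5, 124 and 158 CPM. In the whole list of 18 junction genes, 3 were at least 2-fold higher and 2 at least 2-fold lower than in EGFP-0 hepatocytes. Their median was 0.41 (0.13 relative to all genes), and over all genes 11.9% were at least 2-fold higher and 4.92% lower. Of 11 tested integrins, laminins and osteopontin receptors, 5 were at least 2-fold higher in each comparison, with medians of 0.46 (0.18 relative to all genes) and 0.71. They included Itgb8 (4.27), Itga2 (2.64), Itga3 (2.30) and the osteopontin and hyaluronan receptor Cd44 (2.30) over EGFP-0 hepatocytes. Cd44 was higher still, at 349 CPM, in immune and endothelial cells, against 152 CPM in Sox9-EGFP high cells.

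The 12 largest ratios over EGFP-0 hepatocytes among genes of at least 50 CPM ran from 3.99 for Dcdc2a, a ciliary doublecortin protein, to 6.08 for Ccn2. They also held the membrane protein Tmem45a (5.57), the collectin Sftpd (5.29), Igfbp7 (5.16), Tinagl1 (5.11), Ddah2 (4.74) and the fibulin Efemp1 (4.29). Against EGFP-low hepatocytes the same genes had log2 ratios of 3.86 (Tmem45a), 3.73 (Sftpd), 3.77 (Igfbp7), 4.47 (Tinagl1), 3.47 (Ddah2), 3.08 (Efemp1) and 2.30 (Dcdc2a). Sftpd stood at 74.6 CPM in Sox9-EGFP high cells with at least 100 Alb UMIs per 10000 and at 96.2 CPM in those under it, so it differed little between them.

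Metabolic lists differed in how far they were lower in Sox9-EGFP high cells, with P450 and bile acid genes lowest. Of 16 xenobiotic cytochromes P450, 13 were at least 2-fold lower than in EGFP-0 hepatocytes and 12 than in EGFP-low hepatocytes, with medians of -2.75 (-3.03 relative to all genes) and -1.90. Cyp3a11, a major drug-oxidising P450, was at 129 CPM in Sox9-EGFP high cells, 623 CPM in EGFP-low hepatocytes and 1766 CPM in EGFP-0 hepatocytes. A single Sox9-EGFP high cell held 335 of its 1574 UMIs there. Cyp2e1, the ethanol-oxidising P450 of hepatocytes around the central vein, was at 10.97, 97.8 and 367 CPM in the same order, a log2 ratio of -5.07 (-5.32 to -4.82) over EGFP-0 hepatocytes. In Sox9-EGFP high cells with at least 100 Alb UMIs per 10000 the P450 median was -1.002 over EGFP-low hepatocytes, with 8 of 16 genes at least 2-fold lower.

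Of 19 genes of bile acid synthesis and transport, 13 were at least 2-fold lower than in EGFP-0 and 10 than in EGFP-low hepatocytes, with medians of -1.30 (-1.58 relative to all genes) and -1.03. Cyp7a1, which starts the classic route of bile acid synthesis, was at 2.05 CPM in Sox9-EGFP high cells, 9.37 CPM in EGFP-low and 52.5 CPM in EGFP-0 hepatocytes, and was found in 13 of 241 Sox9-EGFP high cells. The bile acid uptake transporter Slc10a1 was at 11.1, 51.3 and 73.3 CPM in the same order. Of 17 genes of the urea cycle and amino acid breakdown, 7 were at least 2-fold lower than in EGFP-0 and 6 than in EGFP-low hepatocytes. Cps1, the first enzyme of the urea cycle, had medians of 1.51 UMIs per 10000 in Sox9-EGFP high cells, 8.36 in EGFP-low and 11.3 in EGFP-0 hepatocytes. Of 20 apolipoprotein and carrier genes, 8 were at least 2-fold lower in each comparison, led by Apoc1 with log2 ratios of -1.74 over EGFP-0 and -1.37 over EGFP-low hepatocytes. In the Sox9-EGFP high cells with at least 100 Alb UMIs per 10000, no urea cycle or apolipoprotein gene was at least 2-fold lower than in EGFP-low hepatocytes. Over all genes, 1.43% were lower in that comparison.

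Of complement, coagulation and acute phase genes, 5 of 22 were at least 2-fold lower than in EGFP-0 hepatocytes and 6 of 22 than in EGFP-low hepatocytes. Serum amyloid Saa1 was at 59.2 CPM in Sox9-EGFP high cells, 312 CPM in EGFP-low and 300.5 CPM in EGFP-0 hepatocytes, and Saa2 at 11.5, 140 and 149 CPM. A single EGFP-0 hepatocyte held 2006 of 4485 Saa2 UMIs and a single EGFP-low hepatocyte 952 of 3277, and without the top cell of each group Saa2 was at 7.56, 99.4 and 82.9 CPM. Orm1, an acute phase carrier, was at 402, 1286 and 1500 CPM. The lipogenic desaturase Scd1 was at 273, 780 and 1345 CPM, and 4 of 16 lipogenesis and cholesterol genes were at least 2-fold lower than in EGFP-0 hepatocytes. The fatty acid-binding protein Fabp1 was at 429, 1637 and 2649 CPM, whereas Acot1, an acyl-CoA thioesterase, was at 61.2, 13.8 and 12.3 CPM. In their list of fatty acid oxidation and ketone synthesis, 1 of 15 genes was at least 2-fold higher and 3 at least 2-fold lower than in EGFP-0 hepatocytes, with a median of -0.13. Gluconeogenesis and glycolysis had 2 of 13 genes higher and 2 lower, with a median of -0.42. Over all genes, 11.9% were at least 2-fold higher and 4.92% at least 2-fold lower than in EGFP-0 hepatocytes. Of 16 NRF2 and glutathione genes, 8 were at least 2-fold lower than in EGFP-0 and 3 than in EGFP-low hepatocytes, with Gstm3 at 134, 399 and 729 CPM.

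Transcription factors that define hepatocytes had a median ratio smaller in size than those of the P450 and bile acid lists, though single factors differed widely. Of 16 tested, 1 was at least 2-fold higher and 2 at least 2-fold lower than in EGFP-0 hepatocytes, with a median of -0.21 (-0.49 relative to all genes). The lowest ratio was -3.73. Over all genes, 11.9% were at least 2-fold higher and 4.92% at least 2-fold lower. Onecut1, which acts in both hepatocyte and duct development, was at 74.4 CPM in Sox9-EGFP high cells, 42.9 CPM in EGFP-low and 30.7 CPM in EGFP-0 hepatocytes. The xenobiotic receptor Nr1i3 was at 10.2, 38.4 and 49.4 CPM. In haem synthesis, the pathway that DDC blocks, Alas1, the first enzyme, was at 81.4 CPM in Sox9-EGFP high cells, 165 CPM in EGFP-low and 186 CPM in EGFP-0 hepatocytes, and it was the single gene of 14 that passed 2-fold in either direction.

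Liver zonation genes differed by zone and by the hepatocytes used. Of 11 pericentral genes, 10 were at least 2-fold lower than in EGFP-0 hepatocytes and 4 than in EGFP-low hepatocytes, with medians of -1.94 (-2.22 relative to all genes) and -0.79. Oat, an enzyme of hepatocytes next to the central vein, was at 3.44 CPM in Sox9-EGFP high cells, 5.41 CPM in EGFP-low and 38.8 CPM in EGFP-0 hepatocytes. Of 11 periportal genes, 1 (Sox9 itself) was at least 2-fold higher and 3 at least 2-fold lower than in EGFP-0 hepatocytes, with a median of 0.05 that became -0.23 relative to all genes. Those lower were Cyp2f2, at 37.6, 154 and 165 CPM in the 3 groups, Etnppl and Hal. Over all genes, 11.9% were at least 2-fold higher and 4.92% at least 2-fold lower than in EGFP-0 hepatocytes. WT mice on normal diet can be among the EGFP-0 hepatocytes, and the part of diet and genotype in these ratios cannot be told apart.

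Several mitotic transcripts were lower in Sox9-EGFP high cells as a whole. Mki67 was found in 12 of 241 of them, 67 of 473 EGFP-low hepatocytes and 122 of 777 EGFP-0 hepatocytes, with 6.14, 15.7 and 23.96 CPM. A single Sox9-EGFP high cell held 46 of the 75 Mki67 UMIs, and without the top cell of each group its log2 ratio over EGFP-0 hepatocytes was -3.26, against -1.96 with it. Ccnb1 was at 3.19, 8.26 and 14.6 CPM and Ccnb2 at 5.98, 22.0 and 25.7 CPM, and their log2 ratios over EGFP-0 hepatocytes were -2.19 and -2.11, or -2.99 and -2.72 without the top cell of each group. In the list of 21 replication and mitosis genes, 7 were at least 2-fold lower and none at least 2-fold higher than in EGFP-0 hepatocytes, with a median of 0.13 that became -0.15 relative to all genes. In summed UMIs of Sox9-EGFP high cells, the list went the other way with EGFP. At 6 or more EGFP UMIs per 10000 against 2 to 3, 11 of 16 tested genes were at least 2-fold higher. None was at least 2-fold lower, and the median was 1.38, where 6.58% of all genes were at least 2-fold higher. Mki67 stood at 2.72 CPM at 2 to 3, 2.67 CPM at 3 to 6 and 11.5 CPM at 6 or more. The cell with 46 of the 75 Mki67 UMIs can lie only in the band at 6 or more. Most Mki67 UMIs of that band thus came from a single cell, and its level there shows no rise across cells. With Alb under 100 per 10000 against at least 100, 5 of 17 were at least 2-fold higher and none at least 2-fold lower. Few cells carried UMIs of Mki67, Ccnb1, Ccnb2 and Cdc20: the top 2 Sox9-EGFP high cells of each gene held 72%, 69.2%, 67.1% and 66.7%. Neither comparison was repeated without the top cells, so a difference shared by many cells is not shown. The G1 cyclin Ccnd2 was in contrast at 44.3 CPM in Sox9-EGFP high cells, 5.96 CPM in EGFP-low and 3.99 CPM in EGFP-0 hepatocytes, and Cdk4 at 123, 52.2 and 39.3 CPM. Of 12 p53 targets, 2 were at least 2-fold higher than in EGFP-0 hepatocytes, where 11.9% of all genes were. Phlda3 was among the 2, at 84.2, 27.6 and 17.2 CPM. Cdkn1a, the p53-induced cell cycle inhibitor p21, was at 339, 209 and 190 CPM.

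Interferon-induced genes differed in how their UMIs were spread over Sox9-EGFP high cells. Ifit3 had 503 UMIs in Sox9-EGFP high cells, of which 248 and 129 lay in 2 cells, and Ifit1 had 713, of which 213 and 149 lay in 2 cells. The Ifit3 log2 ratio over EGFP-0 hepatocytes was 3.95, and 3.07 without the top cell of each group. The antiviral enzyme Rsad2 had 247 and 142 of 439 UMIs in 2 cells, and its log2 ratio over EGFP-0 hepatocytes was 1.08 with all cells and 0.04 without the top cell of each group. Isg15, a ubiquitin-like interferon-induced protein, was found in 187 of 241 cells, its top 2 cells held 27.9% of its UMIs, and its log2 ratio over EGFP-0 hepatocytes was 1.11 without the top cell of each group. Psmb8, an immunoproteasome subunit, was found in 236 cells, and its top 2 held 5.17%. Of the TGF-beta and BMP list, 3 of 13 genes were at least 2-fold higher than in EGFP-0 hepatocytes. Of the whole list of 18 antigen presentation and interferon genes, 3 were at least 2-fold higher than in EGFP-0 hepatocytes. Over all genes, 11.9% were at least 2-fold higher in this comparison.

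Of the other injury-related genes, Clu, the secreted chaperone clusterin, ranged from 19.4 to 709.9 UMIs per 10000 with a median of 200.6 in Sox9-EGFP high cells, against medians of 70.8 in EGFP-low and 48.7 in EGFP-0 hepatocytes. Its log2 ratio was 1.39 over EGFP-low and 1.90 over EGFP-0 hepatocytes. The surface protein gene Plet1 was at 328, 196 and 147 CPM, and Mfge8, a bridging protein for uptake of dying cells, at 318, 154 and 105 CPM. Defb1, an epithelial defensin, was at 37.8, 86.1 and 108 CPM, and Sprr1a, a cornified envelope protein, at 61.1, 99.998 and 163 CPM, so both were lower in Sox9-EGFP high cells. The oncofetal RNA H19 had 10 UMIs in 7 Sox9-EGFP high cells (0.82 CPM) but 65.6 CPM in EGFP-low and 29.3 CPM in EGFP-0 hepatocytes, where single cells held 391 of 1540 and 273 of 879 UMIs. With the EGFP limit set at 1 per 10000, the H19 log2 ratio over EGFP-0 hepatocytes changed sign to 0.66.

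Sox9-EGFP high cells differed among themselves along the EGFP range. Across EGFP-0 hepatocytes, EGFP-low hepatocytes and Sox9-EGFP high cells at 2 to 3 (69 cells), 3 to 6 (82 cells) and at least 6 EGFP UMIs per 10000 (90 cells), Spp1 was at 1161, 3848, 8798, 12986 and 22677 CPM. Ccn2 was at 3.53, 13.3, 52.6, 157 and 435 CPM across the same 5 steps, and Bicc1 at 36.5, 85.8, 198, 312 and 525 CPM. Alb was at 29821, 27573, 17967, 13432 and 7793 CPM and Saa1 at 300.5, 312, 159, 31.4 and 14.0 CPM, while Hnf4a was at 149, 142, 126, 115 and 101 CPM. Saa1 was alone of the 6 plotted hepatocyte genes in not being lower in EGFP-low than in EGFP-0 hepatocytes. Each of Spp1, Sox9, Bicc1, Cd24a, Ccn2 and Tubb2b was higher at each step. Ccn2 and Tubb2b were among the 8 highest and Saa1 among the 8 lowest ratios between the outer EGFP bands of Sox9-EGFP high cells. Their course over these bands was thus picked from the same data. The hepatocyte groups had the Alb limit and the Sox9-EGFP high bands had none, so the step between them is in part set by that choice.

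**Figure D4:**
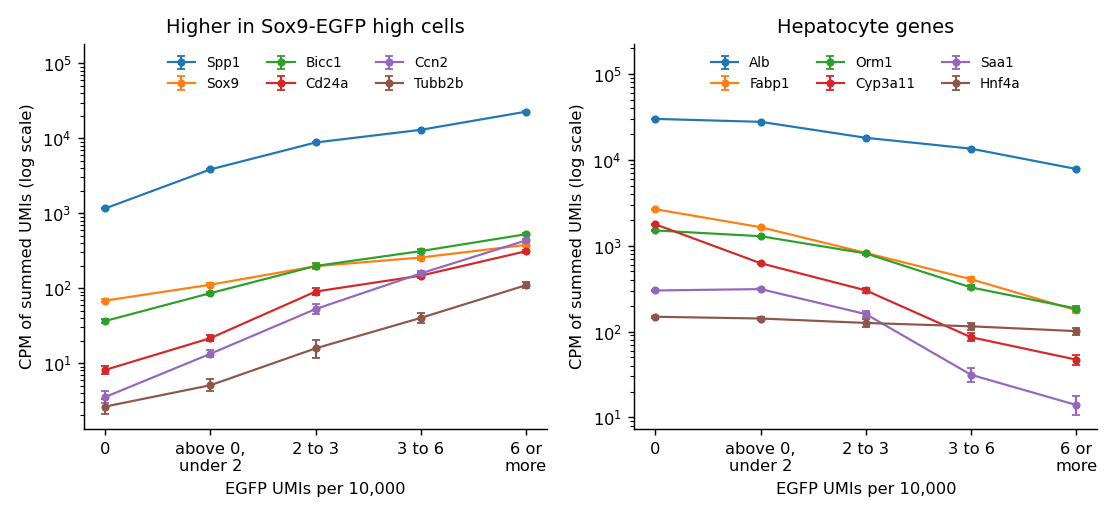
Summed CPM (log scale, 95% Poisson intervals) by EGFP level, from EGFP-0 hepatocytes at the left to Sox9-EGFP high cells with at least 6 EGFP UMIs per 10000 at the right. Only the EGFP-0 and EGFP-low hepatocytes were chosen for at least 100 Alb UMIs per 10000. Spp1, Sox9, Bicc1, Cd24a, Ccn2 and Tubb2b ascend at every step in the left panel, and Hnf4a spans the smallest range in the right panel, from 149 to 101 CPM.

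Between Sox9-EGFP high cells with at least 6 and those with 2 to 3 EGFP UMIs per 10000, 607 of 9230 genes (6.58%) were at least 2-fold higher and 299 (3.24%) at least 2-fold lower. The largest ratios included Ankrd1 (5.92), Tesc (3.13), Ccn2 (3.05), Tubb2b (2.80), Ccnd2 (2.79) and the matrix protein Sparc (2.23), and the smallest Serpina3m (-3.55), Saa1 (-3.51), Cyp2f2 (-3.27), Gsta1 (-3.18) and Defb1 (-2.92). The cell described above that held 274 of the 448 Ankrd1 UMIs is included in its ratio. Over the 241 cells thinned to 10000 UMIs, the Spearman correlation with EGFP was 0.46 for Spp1, 0.42 for Bicc1, 0.35 for Cd24a, 0.29 for Sox9, -0.29 for Alb and -0.06 for Hnf4a, as a description of cells that share a library.

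Sorting the same cells by Alb gave a related picture. The 135 cells under 100 Alb UMIs per 10000 against the 106 at or above it had 539 of 10022 genes (5.38%) at least 2-fold higher and 265 (2.64%) at least 2-fold lower. Tinagl1 (2.41), Anxa3 (2.41), Ccn2 (2.39), the claudin Cldn2 (2.24) and Tubb2b (2.19) were among the highest after Rsad2 (4.49), Ankrd1 (3.59) and Ifit3 (3.06), genes of which 1 or 2 cells held most UMIs. Ankrd1 was found in 36 of the 135 cells under 100 and in 9 of the 106 at or above it. Serpina3m (-3.48), Hsd17b6 (-3.32), Cyp2c29 (-3.28), Cyp3a11 (-3.13) and Fabp1 (-3.03) were among the lowest, as genes that move with Alb could be. Hsd17b6 was at 88.0 CPM in the cells at or above 100 and 8.84 CPM in those under it, around the 36.3 CPM of EGFP-0 hepatocytes. In the cells at or above 100 set against EGFP-low hepatocytes, fewer listed genes passed 2-fold, as did fewer of all genes. The share of all genes at least 2-fold higher was 1.98%, against 7.85% with all Sox9-EGFP high cells. At least 2-fold higher were 2 of 13 bile duct and progenitor transcription factors, 3 of 12 YAP and TEAD targets and 7 of 22 cytoskeletal genes. So were 5 of 15 protease and matrix genes and none of 13 AP-1 or 15 TWEAK and NF-kB genes. In these cells, Sox9 was still at 178 CPM, Spp1 at 11064 CPM, Cd24a at 92.7 CPM and Bicc1 at 227 CPM, above the EGFP-low hepatocytes under the same limit by 0.68, 1.52, 2.10 and 1.40 on the log2 scale. The biliary and ductal list had a median of 0.66 over EGFP-low hepatocytes in these cells, with 5 of 11 genes at least 2-fold higher.

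The most variable genes among Sox9-EGFP high cells, by the ratio of variance to mean after thinning, were abundant secreted proteins and 1 nuclear RNA. Clu led with a ratio of 107 and a mean of 237.9 UMIs (SD 159.8 over cells), followed by Spp1 (96.6), Alb (95.5) and Mup20 (85.2), a major urinary protein. Apoa2, Malat1, Hpx, Apoa1, Apoc3, Trf, Hp and Ttr followed, with ratios of 58.2 for Apoa2 to 34.0 for Ttr. Over the 1432 genes with a mean of at least 1 UMI the median ratio was 1.24. Mup20 had a median of 26.4 UMIs per 10000 in Sox9-EGFP high cells, 24.7 in EGFP-low and 19.4 in EGFP-0 hepatocytes, with highest values of 383, 365 and 517.5, whereas its relatives Mup17 and Mup9 had log2 ratios of -5.00 and -4.87 over EGFP-0 hepatocytes. Mup genes are near-identical copies, so reads may be split between them.

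Several genes that were higher in Sox9-EGFP high cells were also found in cells without EGFP. The 99 cells under the same depth and immune limits with Alb under 100 per 10000 and no EGFP UMI had 185.5 CPM of Sox9, 6282 CPM of Spp1, 239 CPM of Sox4 and 90.6 CPM of Ccn2, against 370 CPM, 19068 CPM, 497 CPM and 363 CPM in the 135 Sox9-EGFP high cells with Alb under 100. Their stellate cell or fibroblast markers summed to 517 CPM, against 30.1 CPM in those Sox9-EGFP high cells, and the part of such cells in these values was not tested. In WT mice no reporter exists, and in Sox9-EGFP mice a cell with few EGFP transcripts can show none at this depth.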

How the data were processed

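The library was made with the 10x Chromium 3' method from perfused liver cells, per the labels' protocols. The deposited values are UMI counts for each gene in each barcode, not normalized. The deposited gene and barcode lists hold names and have no unit (other). Build mm10 was used with Cell Ranger 6.0.1 and Seurat 4.0.1, per the submitters' processing notes, while Cell Ranger 5.0.1 stands in the matrix header, and which version made the matrix was not settled. The rule that chose the deposited barcodes is not stated in those sources.

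The DDC library held 104523363 UMIs in 8694 barcodes. Cells and groups were chosen as the report says. No doublet caller was run, and leaving out the deepest 5% of each group was an alternative. UMIs were summed over a group, without EGFP, and scaled to CPM, and log2 ratios were taken for genes with at least 50 UMIs over both groups. A gene counted as higher or lower past 2-fold. A group at 0 was set to a floor of 3 UMIs over the group. Intervals (95%) were Poisson for sums, conditional binomial for ratios and Clopper-Pearson for shares, and they cover counting error only. Shares after thinning used 10000 UMIs per cell drawn without replacement, and no cell was too shallow. The ratio and its interval were tested on simulated data.

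Named genes were the given markers, up to 4 genes per list with the largest ratio (at least 10 CPM in a group), the 12 highest and 12 lowest of all genes (at least 50 CPM in a group), the 12 most variable, and the 8 highest and 8 lowest by Alb or EGFP within the Sox9-EGFP high cells. Mitochondrial, ribosomal and unnamed genes, and genes over 3 times higher in immune and endothelial cells, were left out of the rankings of all genes. Not every gene so chosen is reported here. Aldoa, listed under 2 IDs, was left out. The cells, lists and rules were chosen with earlier results of these data known. Computation used scipy 1.17.1 and numpy 2.4.6 under Python 3.11.15, with tables in pandas 2.3.3 and figures in matplotlib 3.10.9.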

Additional observations from a re-analysis of the deposited data

How the results depend on the processing

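With EGFP limits of 1 and 4 per 10000, 376 and 134 cells were chosen, against 241, and 106 when at least 100 Alb UMIs per 10000 were required. The count of genes at least 2-fold higher than in EGFP-0 hepatocytes, 1375, became 524 in those 106 cells, 889 against EGFP-low hepatocytes, 841 relative to the median of all genes and 4733 with no UMI minimum. The count of genes at least 2-fold lower, 568, became 315 against EGFP-low hepatocytes, 881 relative to the median of all genes and 1071 with no UMI minimum. The cause was not tested, except that the UMI minimum sets how many genes enter (11549, against 18256 without one). Both counts stayed within 1.5 times of these under the EGFP limits, UMI minimums per cell of 3000 and 20000, a mitochondrial limit of 10%, an immune and endothelial limit of 1 per 10000, leaving out the deepest 5% of cells, means over cells, thinning, a gene minimum of 20 UMIs and leaving out each gene's top cell (chosen after seeing the data, 1340 higher and 637 lower). All 11 lists whose median passed 2-fold kept its direction under each alternative, but fewer stayed past 2-fold: 4 with at least 100 Alb UMIs per 10000, 6 relative to the median of all genes, 7 against EGFP-low hepatocytes, 8 with an EGFP limit of 1 and 10 after thinning. Of 123 named genes past 2-fold, H19 changed sign with an EGFP limit of 1 (0.66) and Ccl7 in the cells with at least 100 Alb UMIs per 10000 (-0.28), and no other did among those tested. No paired analysis was possible because the library is 1 sample and its cells carry no replicate numbers.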
